A study of Mus musculus with 6 samples.

Results

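A group of 10 genes of the actin-like, actin-capping and cylicin proteins of the sperm head were followed in mature sperm and testes of the mouse. They are Actl7a, Actl7b, Actl9, Actl11, Actrt1, Actrt2, Actrt3, Cylc1, Cylc2 and Capza3, and were found as the RefSeq mRNA rows (accessions that begin with NM_) under these gene symbols. Of the 10 genes, 9 had a row in at least 1 sample, each with 1 transcript, among 14455 genes with such rows in the series. Actrt1 had none in any sample. Strand-specific, rRNA-depleted RNA-seq was run on 4 samples of sperm and 2 samples of testes from healthy C57BL/6 males. The labels give an age of 3 to 5 months. The methods of the study name C57BL/6J and give a younger range of ages, in weeks. All 6 samples are of this 1 strain and carry no treatment or altered allele. Each sperm sample was a pool over mice, collected from the cauda epididymis and vas deferens and washed in a somatic cell lysis buffer, and the testes came from the same mice. Testes hold germ cells of every stage beside somatic cells, so in these bulk samples fewer cells of a type and less RNA per cell cannot be told apart.

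The perinuclear theca is the rigid protein capsule that encloses the nucleus of the sperm head. Its front part lies between the nucleus and the acrosome, the vesicle of enzymes used at fertilization, and its rear part, the calyx, lies behind the acrosome. Cylicins are basic, lysine-rich proteins of the calyx, and actin-related proteins and a testis form of the actin-capping protein are further constituents. The genes are transcribed in haploid germ cells (spermatids) of the testis, whereas mature sperm make little or no new RNA.

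The genes lie on 6 chromosomes in the GRCm38.p6 annotation of RefSeq, where 9 were matched by accession and Actrt1 by symbol. Actl7b (chr4:56740005-56741425) and Actl7a (chr4:56743422-56744925) stand head to head with 1996 bases between them. Actrt2 (chr4:154666428-154667867) and Cylc2 (chr4:51216653-51250625) lie on the same chromosome. The others are Actrt3 (chr3:30597073-30599870), Capza3 (chr6:140041557-140042837), Actl11 (chr9:107928469-107932461), Actl9 (chr17:33432899-33434268), Actrt1 (chrX:46329007-46330345) and Cylc1 (chrX:111110418-111125854). For Actl7a, Actl7b, Actl11 and Actrt2 the gene span equals the transcript length in the tables, which are 1504, 1421, 3993 and 1440 bases, so the gene has no intron. Cylc2 spans 33973 bases for a transcript of 1297. The span of Capza3 lies 68 bases from that of Plcz1, the gene of the egg-activating phospholipase of the theca. No other annotated gene overlapped any of the 10 spans.

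Promoter windows of RefSeq, from 250 bases before to 50 bases after the gene start, were at hand for 8 of the 10 genes, without Cylc2 and Capza3. They were searched on both strands for the cyclic AMP response element, TGACGTCA, a site bound in spermatids by the activator CREM, and for its shorter core TGACG, which the full element contains. The full element was found in none of the 8 windows and in 1.79% of 32851 windows of all genes, and the core in 1 window, that of Actrt3, and in 20.8% of all. Reading the windows then brought up TGATGTCA, 1 base away from the full element, in 4 of the 8 windows and in 3.62% of all. A further string, TTGCCATGG, stood in the windows of Actl11 and Actrt1 and in 0.740% of all. Both strings were chosen after these windows had been read, so their counts describe the windows and support nothing. The 150 bases before the start are printed 5′ to 3′ for the 4 genes that share TGATGTCA and for Actl11, which lacks it. Capitals mark TGATGTCA or its reverse complement, and in Actl11 the reverse complement of TTGCCATGG.
Actl7a, chr4:56743272-56743421, plus strand: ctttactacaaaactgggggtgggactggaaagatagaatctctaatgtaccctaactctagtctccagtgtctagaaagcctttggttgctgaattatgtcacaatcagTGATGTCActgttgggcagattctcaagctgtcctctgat
Actl7b, chr4:56741426-56741575, minus strand: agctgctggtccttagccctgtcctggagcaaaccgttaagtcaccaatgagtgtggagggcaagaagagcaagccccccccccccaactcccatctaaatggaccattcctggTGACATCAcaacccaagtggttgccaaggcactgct
Actl9, chr17:33432749-33432898, plus strand: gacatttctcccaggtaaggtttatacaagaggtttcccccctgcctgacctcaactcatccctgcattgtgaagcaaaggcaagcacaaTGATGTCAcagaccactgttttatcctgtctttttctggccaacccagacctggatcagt
Cylc1, chrX:111110268-111110417, plus strand: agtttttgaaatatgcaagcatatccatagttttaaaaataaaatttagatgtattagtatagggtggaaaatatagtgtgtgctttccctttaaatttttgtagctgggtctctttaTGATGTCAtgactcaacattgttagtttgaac
Actl11, chr9:107928319-107928468, plus strand: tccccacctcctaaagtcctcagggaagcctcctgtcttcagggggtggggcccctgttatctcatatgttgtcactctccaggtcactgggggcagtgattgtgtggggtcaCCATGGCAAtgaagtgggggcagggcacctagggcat

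TGATGTCA ran from base -40 to -33 in Actl7a, from -36 to -29 in Actl7b (on the other strand), from -60 to -53 in Actl9 and from -32 to -25 in Cylc1, counted from the gene start. Those of Actl7a, Actl7b and Cylc1 thus begin between -40 and -32. A match of letters is no evidence of a bound factor.

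**Figure D1:**
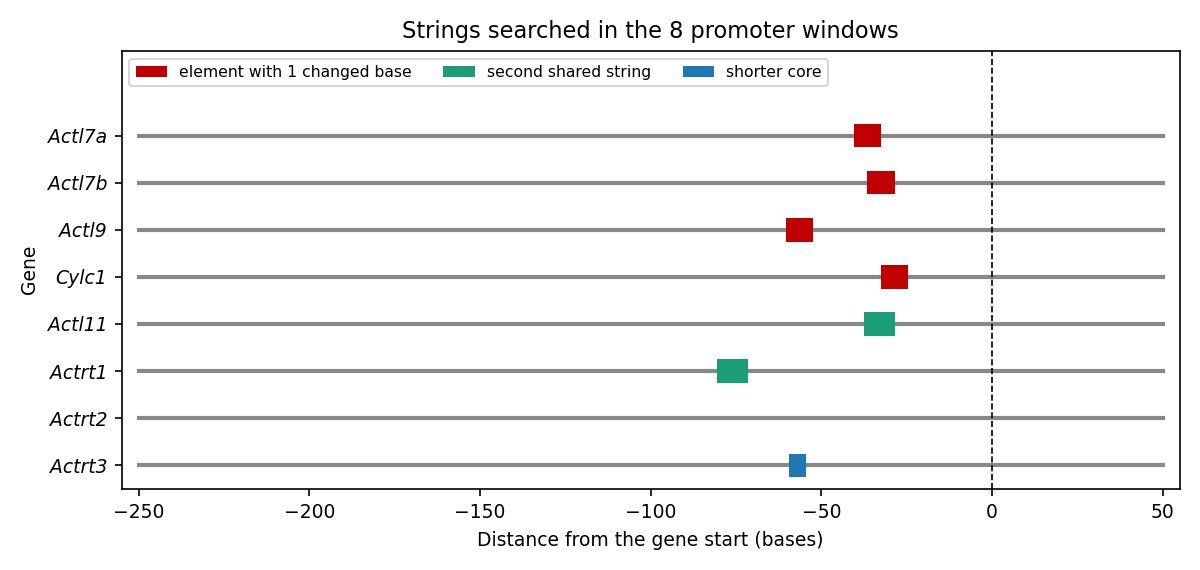
Positions of the searched strings in the promoter windows of 8 genes, in bases from the gene start (dashed line), with each grey line showing the window from 250 bases before the start to 50 after it. The string that is 1 base away from the cyclic AMP response element (red) lies between -60 and -25 in Actl7a, Actl7b, Actl9 and Cylc1, the second string (green) in Actl11 and Actrt1, and the core (blue) in Actrt3.

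Depth set what could be seen. Estimated counts in RefSeq mRNA summed to 33511 to 100027 per sperm sample and 314273 to 322625 per testes sample, which is 9.14% to 12.1% of all counts in a sample. Levels are given as CPM, which are counts scaled to a total of 1000000 of these mRNA counts. The floor used here, 3 counts, equals 29.99 to 89.5 CPM in single sperm samples, 13.0 CPM in the 4 sperm samples together, and 9.30 and 9.55 CPM in testes. Prm2, which encodes a protamine of sperm chromatin, was present in all 6 samples with 45, 148, 49 and 130 counts in sperm and 465 and 220 in testes. All 6 markers of spermatids and sperm had counts in testes, and their summed level was 1274 to 2503 CPM in sperm and 1860 to 2512 CPM in testes, most of it Prm2 in sperm. The other 5 had a negative log2 fold change, and of these Tnp1, a transition protein, was called lower (2 counts in sperm, 98 and 86 in testes, log2 fold change -5.16, edgeR adjusted p 0.0323), while Odf1 was at 0 in sperm. Over the 6 markers the median was -3.35. Markers of other cells were found in some sperm samples. Of 3 meiotic markers 2 were measured, both at 0 in sperm (43.4 and 82.7 CPM together in testes). Kit, Cdh1 and Ptprc had no count in any sample, while Cd4 had 2 counts in sperm replicate 2 and 4 in testes replicate 1. The 4 Sertoli cell markers summed to 0 to 10.0 CPM in sperm, from 1 count of Sox9, and 17.2 to 31.0 CPM in testes. The 4 Leydig cell markers summed to 0 to 1194 CPM in sperm and 525 to 558 CPM in testes, which in sperm was nearly all Star, with Insl3 and Cyp11a1 at 0. The sum of 1194 CPM, above both testes samples, is that of sperm replicate 3, from 40 counts of Star. Of 6 epididymal markers 3 had counts (0 to 92.0 CPM in sperm, 3.10 to 50.9 CPM in testes), and in sperm only Adam7 did, with 5 counts in replicate 4. The part of other cells in the values below was not tested.

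The first question was how much of this group of mRNA the sperm samples held. The 9 genes were all present in both testes samples, with 164 and 158 counts in total (509.6 and 503 CPM). In sperm, 5 of them had counts, and they had them in replicates 2 and 4 only. Replicate 2, the deepest, held 17.9 counts of 5 genes (179 CPM) and replicate 4 held 14 counts of 2 genes (258 CPM). Replicates 1 and 3 held none of the 10 genes. At the level of the pooled testes, replicates 1 and 3 would have held 21.5 and 17.0 counts, replicate 2 would have held 50.6 and replicate 4 27.5. All 4 sperm samples thus lay below both testes samples, also where counts were found. The mean level was 109 ± 130 CPM (SD, n = 4) in sperm and 506 ± 4.82 CPM (SD, n = 2) in testes, a ratio of 0.215. Replicates 1 and 3 are also the shallowest sperm samples, and 64.0% of the 6949 genes tested had no count in either.

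The counts of these genes were divided differently among them in sperm and in testes. In sperm all of the counts come from replicates 2 and 4, and the difference in make-up was not tested. Cylc2 held 39.1% of the counts of the group in testes, Actl7b 23.6% and Capza3 13.0%, and Actl11 held 4.16%. In sperm Actl11 held 65.5% of the 31.9 counts and Capza3 22.0%, and Cylc2 held none. Pooled over samples, sperm had 0.273 of the testes level for the whole group (95% interval 0.185 to 0.396, exact binomial) and 0.0985 without Actl11 (0.0486 to 0.179). These intervals, like all others here, cover counting error only, since they pool the counts of a group and leave out the spread between samples. They also take every count as independent, which PCR copies of a fragment are not. Actl11 was set apart after its values were seen.

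**Figure D2:**
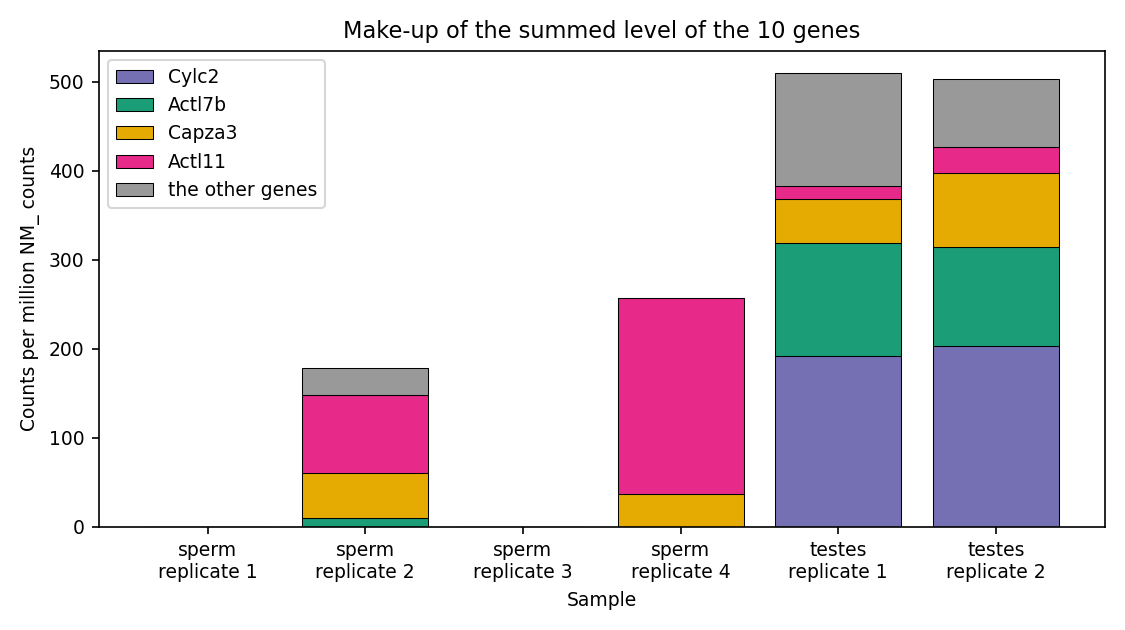
Summed level of the 10 genes in each sample, in CPM, divided by gene. Sperm replicates 1 and 3 hold nothing, and replicates 2 and 4 stand at 179 and 258 CPM. Actl11 (pink) holds 88.6 CPM of replicate 2 and 221 CPM of replicate 4. The testes samples stand at 509.6 and 503 CPM and are mostly Cylc2 (violet) and Actl7b (green).

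Single genes were then compared by edgeR's quasi-likelihood test over all 6949 genes with at least 10 counts in the 6 samples together. Of the 10 genes 7 were tested, Actrt3 and Cylc1 had fewer counts, and Actrt1 had none. Cylc2 was called lower in sperm, the call being an edgeR adjusted p below 0.05 and a fold change over 2. The other 6 were not called. Of all genes tested, 17.5% were called lower (1214 genes) and 3.83% higher (266), so 1 of 7 is no more than the background. With TMM factors the split over all genes was 1739 lower and 60 higher. At an unadjusted p below 0.05 edgeR had 3 of the 7 lower and 0 higher, beside 30.6% lower of all genes tested. DESeq2 called 1 lower and 0 higher, beside 3.68% lower of all. It gave no adjusted p for Actl7a, Actl9 and Actrt2, and genes without one count as not called in both figures. Limma on log2(FPKM + 1) called 4 lower and 0 higher, beside 24.4% lower of all. The log2 fold change was negative for 6 of the 7, with a median of -2.19, beside 65.2% and -1.15 for all genes tested. As most of the 7 passed the count minimum through their testes counts, these figures are a description. The highest sperm value was under the lower testes value for 4 of the 7, namely Cylc2, Actl7b, Actl7a and Actrt2, and for 41.4% of all genes tested. The opposite order held for 0 of the 7 and for 5.44% of all. Sperm pools and testes samples are separate samples in the labels, and p-values measure the spread between them.

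**Figure D3:**
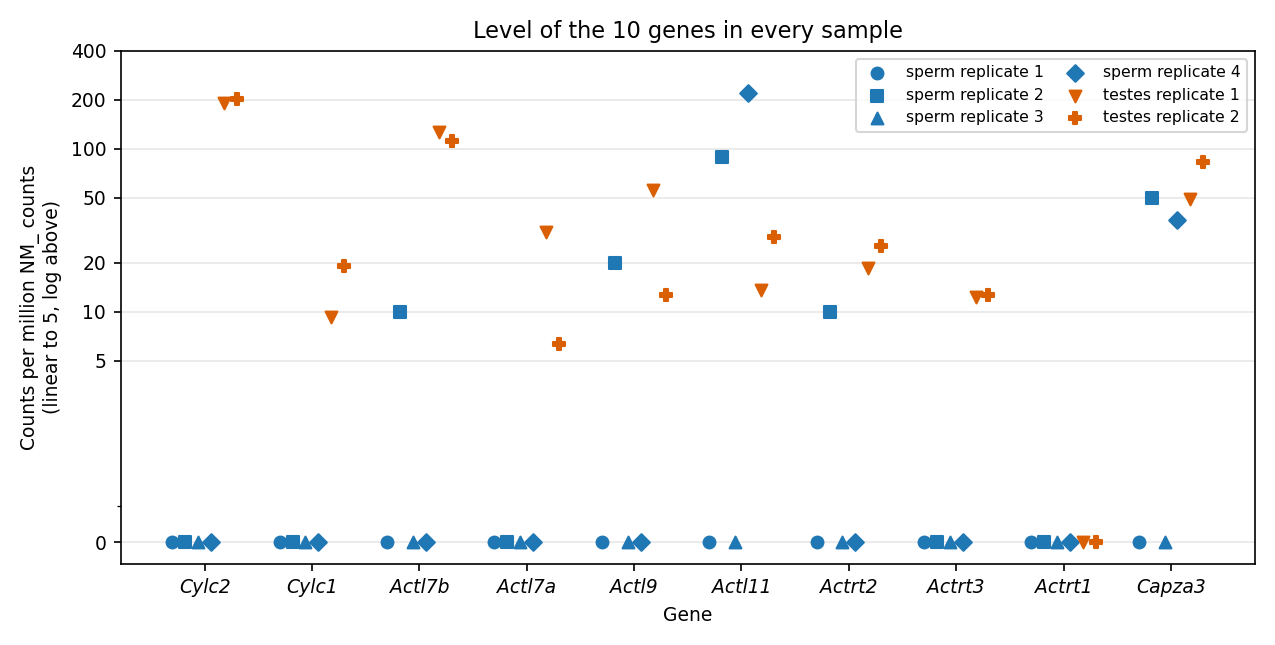
Level of each gene in each of the 6 samples, in CPM, on an axis that is linear up to 5 and logarithmic above. Blue symbols are sperm and orange symbols testes, Cylc2 and Actl7b are the 2 highest genes in testes at 111 to 204 CPM, and Actl11 is the gene whose 2 sperm values above 0 (88.6 and 221 CPM) exceed both testes values.

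The cylicins come first. Cylc2 (NM_001162865), which encodes cylicin 2, had 62 and 64 counts in testes (192 and 204 CPM) and 0 in all 4 sperm samples. The testes samples were close to each other and no sperm sample overlapped them. At the testes level the sperm samples would have held 8.39, 19.8, 6.63 and 10.7 counts, 45.6 in all. With 3 counts over the 4 sperm samples as the floor, Cylc2 was at least 15.2-fold lower in sperm. The edgeR adjusted p was 0.0303, with a log2 fold change of -7.84 (SE 2.37) whose size depends on the prior count of the fit. With 0 counts in sperm, Cylc2 passed the count minimum through testes alone and could only come out lower. Its call is therefore a description. The adjusted p rose above the threshold without sperm replicate 2 (0.106), sperm replicate 4 (0.0650), testes replicate 1 (0.173) or testes replicate 2 (0.175).

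Absence from every sperm sample was not particular to Cylc2. Of all genes tested, 21.2% had no count in any sperm sample, and so had 152 of the 1875 genes (8.11%) with 50 or more counts in testes. Cylc2 was 18th of these 152 by its testes counts. Cylc1 (NM_026134), the X-linked cylicin, had 3 and 6 counts in testes (9.30 and 19.1 CPM) and 0 in all sperm samples. At that level the 4 sperm samples would have held 3.25 counts together, so a lower level in sperm was not detectable at this depth. In testes, Cylc2 exceeded Cylc1 per length, with 153 ± 6.25 against 7.23 ± 3.53 CPM per kilobase of transcript (SD, n = 2).

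Next are the actin-like genes of the subacrosomal layer. Actl7b (NM_025271), an actin-like gene needed for the shaping of spermatids, had 41 and 35 counts in testes (127 and 111 CPM). In sperm it had 1 count, in replicate 2 (10.0 CPM). All sperm values lay far below both testes values, where the testes level would have given 27.5 counts. The pooled ratio of sperm to testes was 0.0364 (95% interval 0.000910 to 0.209). On the log2 scale the difference was -4.70 (SE 1.92), with an edgeR adjusted p of 0.0618, just over the threshold. Without sperm replicate 2, which holds the 1 count, it was -7.20 (adjusted p 0.106), a fitted value against 0 counts that depends on the prior count.

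Actl7a (NM_009611), whose protein holds the acrosome to the nucleus, had 10 and 2 counts in testes (31.0 and 6.36 CPM) and 0 in all sperm samples. The testes samples differed widely from each other, and sperm did not overlap them. The floor of 3 counts makes the gene at least 1.45-fold lower in sperm against both testes samples pooled, but testes replicate 2 alone lies under that floor and gives no bound. At the pooled testes level the single sperm samples would have held 0.799, 1.88, 0.631 and 1.02 counts. Its fitted log2 fold change of -4.50 (SE 1.85) had an edgeR adjusted p of 0.0628. Actl7a too passed the count minimum through testes alone and could only come out lower. The head-to-head pair Actl7a and Actl7b stood at unequal levels in testes, 12.4 ± 11.6 and 83.9 ± 7.82 CPM per kilobase (SD, n = 2). Both genes were called lower when the library size was taken with TMM factors (edgeR adjusted p 0.0342 each), with DESeq2's size factors (0.0326 for Actl7a and 0.0376 for Actl7b) or from all transcripts of a sample (0.0448 and 0.0403). Those settings called 1739, 1810 and 1531 genes lower over all, beside 1214 in the main test. Actl7a was called in 5 of 15 alternatives fitted, of which DESeq2's Wald test gave no adjusted p, and Actl7b in 6 of 16. Neither was called when any single sperm sample was left out.

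Actl9 (NM_183282), whose protein binds ACTL7A, had 18 and 4 counts in testes (55.8 and 12.7 CPM) and 2 counts in sperm replicate 2 (20.0 CPM). The groups overlapped, since the value of replicate 2 lay between those of the testes samples. Its pooled ratio was 0.251 (95% interval 0.0287 to 1.02) and its log2 difference -2.04 (SE 1.32), with an edgeR adjusted p of 0.252. Without sperm replicate 2, its one sperm sample with counts, the fitted value was -5.43 (adjusted p 0.139), and without testes replicate 2 it was -2.87.

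Actl11 (NM_026338), an actin-like gene with a longer transcript than the others, was the exception. It had 8.86 counts in sperm replicate 2 and 12 in replicate 4 (88.6 and 221 CPM), 0 in replicates 1 and 3, and 4.40 and 9 in testes (13.6 and 28.6 CPM). Both sperm samples with counts lay above both testes samples and the other 2 lay below, so the groups overlapped. At the testes level replicates 1 and 3 would have held 0.892 and 0.705 counts, so their zeros carry little information. The pooled ratio was 4.31 (95% interval 2.14 to 9.71, counting error only). Between samples the spread was larger, and the log2 fold change of 1.92 (SE 1.81) had an edgeR adjusted p of 0.448. Without sperm replicate 4 it was 0.88, and without testes replicate 2 it was 2.57. With limma on log2(FPKM + 0.1) it turned to -0.19 (adjusted p 0.950). Without sperm replicates 1 and 3, a setting chosen after the data were seen, it was 2.84 (edgeR adjusted p 0.0402). Actl11 was also the only one of the 9 genes with estimated counts that were not whole, 8.86 and 4.40, and such values arise where fragments are shared out among transcripts. Sperm replicate 4, its highest sample, held 5 counts of Adam7 from the list of 6 epididymal markers, while the other markers had none there. Adam7 also had 1 and 11 counts in testes. The part of epididymal cells in the Actl11 value was not tested.

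The ACTRT genes encode actin-related proteins of the theca. Actrt2 (NM_028513) had 6 and 8 counts in testes (18.6 and 25.5 CPM) and 1 count in sperm replicate 2 (10.0 CPM). Its sperm values lay below both testes values. At the testes level the single sperm samples would have held 0.932, 2.20, 0.737 and 1.19 counts, so this order carries little information. The pooled ratio was 0.198 (95% interval 0.00467 to 1.30) and the log2 difference -2.19 (SE 1.30), with an edgeR adjusted p of 0.210. Without sperm replicate 2 it was -4.81 (adjusted p 0.133), again against 0 counts. Actrt3 (NM_029690), whose protein binds the testis profilin PFN3, had 4 counts in each testes sample (12.4 and 12.7 CPM) and 0 in sperm, where 2.89 counts would have been held at the testes level. No difference was detectable for it at this depth. Actrt1 had no row in any table, which in testes allows up to 9.30 and 9.55 CPM.

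Capza3 (NM_007605), the testis form of the alpha subunit of the actin-capping protein, had 16 and 26 counts in testes (49.6 and 82.7 CPM). In sperm it had 5 counts in replicate 2 and 2 in replicate 4 (49.99 and 36.8 CPM) and 0 in the others. The groups overlapped, with replicate 2 at the level of testes replicate 1. Its mean level was 21.7 ± 25.6 CPM (SD, n = 4) in sperm and 66.2 ± 23.4 CPM (SD, n = 2) in testes, the pooled ratio was 0.461 (95% interval 0.175 to 1.04), and the log2 difference of -1.40 (SE 1.61) had an edgeR adjusted p of 0.548. Without sperm replicate 2 it was -2.17 (adjusted p 0.277). Its neighbour Plcz1 had 4 and 6 counts in testes and 0 in sperm.

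**Figure D4:**
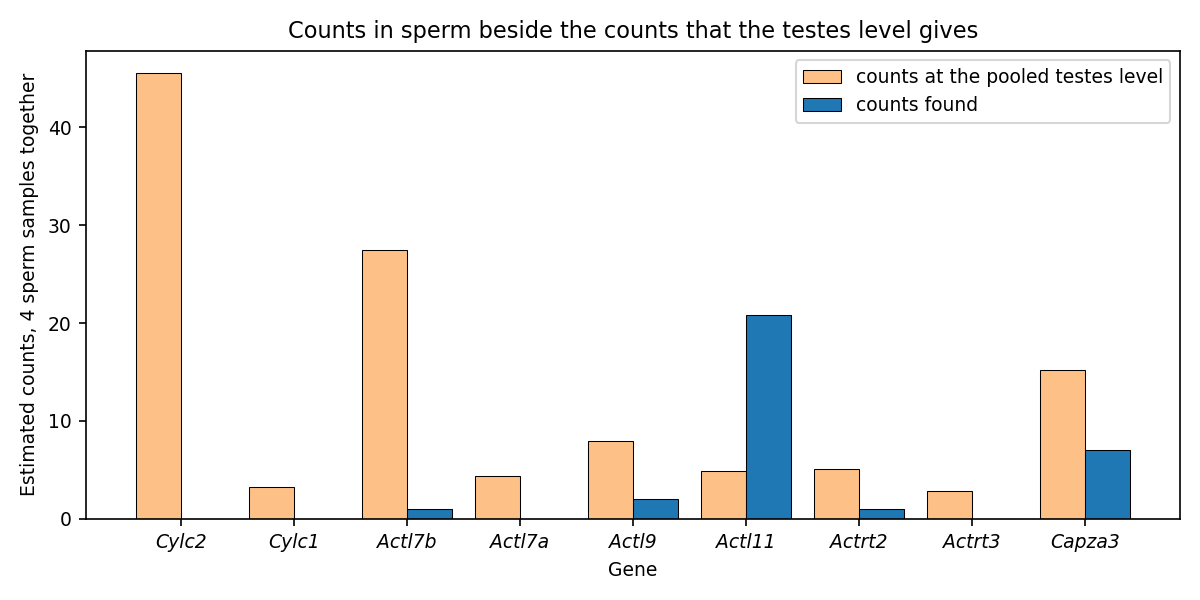
Estimated counts of each gene in the 4 sperm samples together (blue bars) beside the counts that the pooled testes level would give at the same depth (light orange bars). Cylc2 has 0 counts where 45.6 would be held and Actl7b 1 where 27.5 would be, while Actl11 has 20.9 where 4.84 would be.

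Levels were set in order per length, in CPM per kilobase. In testes Cylc2 was highest at 153 ± 6.25 (SD, n = 2), followed by Actl7b at 83.9 ± 7.82 and Capza3 at 52.4 ± 18.6, and the values of these 3 genes did not overlap. Actl9 at 25.03 ± 22.2, Actrt2 at 15.3 ± 3.37, Actl7a at 12.4 ± 11.6, Cylc1 at 7.23 ± 3.53, Actrt3 at 6.64 ± 0.123 and Actl11 at 5.29 ± 2.66 followed. From Capza3 down, the values of each gene overlapped those of its neighbour in this order. In sperm the order was led by Actl11 at 19.4 ± 26.1 (SD, n = 4) and Capza3 at 17.2 ± 20.3, which did not differ beyond their spread. Actl9, Actl7b and Actrt2 followed at 3.65 ± 7.30, 1.76 ± 3.52 and 1.74 ± 3.47, each from counts in replicate 2 alone.

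**Figure D5:**
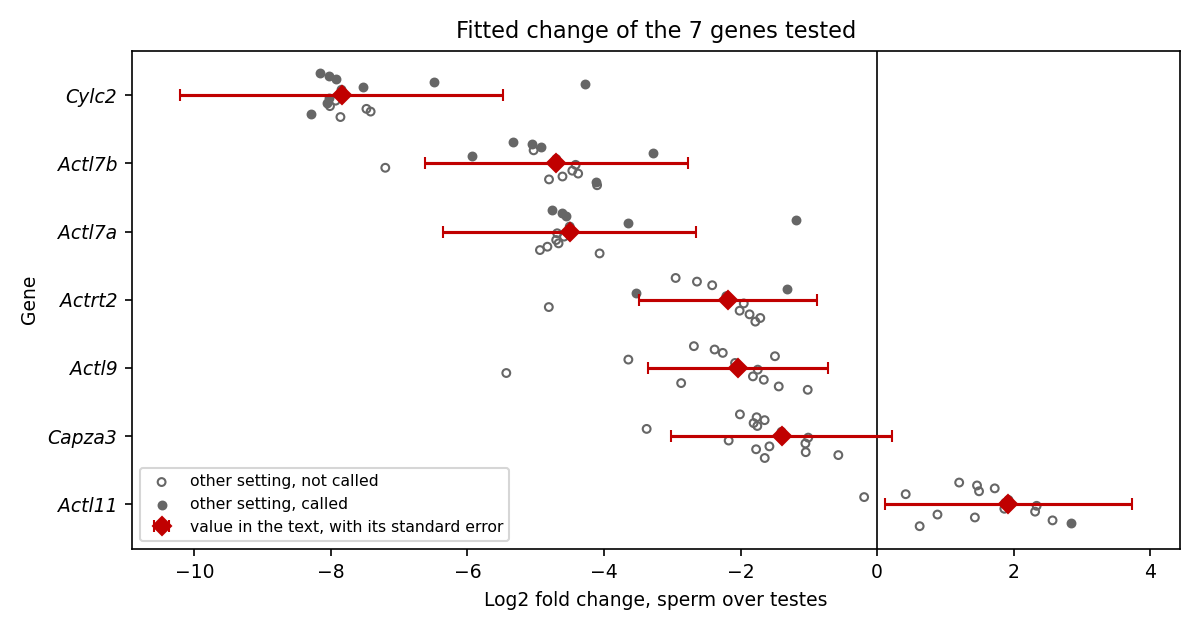
Log2 fold change of sperm over testes for the 7 genes tested (red diamonds, with the standard error of the fit) and the same value under other settings (grey points, filled where the gene was called). Cylc2 runs from -8.30 to -4.28 over the settings, and Actl11 is the one gene with values on both sides of 0, from -0.19 to 2.84.

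Other genes of the theca, the acrosome and the actin system were described beside the group. Of 14 further theca genes 10 had counts, 5 were tested, and 3 were called lower in sperm and none higher by edgeR (unadjusted p below 0.05: 4 lower and 0 higher). Of all genes tested, edgeR called 17.5% lower and 3.83% higher, and 30.6% were lower at an unadjusted p below 0.05. Fabp9, a fatty acid binding protein of the theca, had 24 and 99 counts in testes and 0 in sperm, at least 14.8-fold lower (edgeR adjusted p 0.0311). The cysteine-rich theca genes Cypt12 and Cypt4 were at least 9.40-fold and 2.25-fold lower, with 0 counts in sperm (edgeR adjusted p 0.0323 and 0.0331). These bounds rest on unequal testes samples, and against the lower one alone they were 5.71-fold for Fabp9, 2.85-fold for Cypt12 and 1.13-fold for Cypt4. The median log2 fold change of the 5 was -5.14, beside -1.15 for all genes tested. Fabp9, Cypt12, Cypt4 and Plcz1, at 0 in sperm, passed the count minimum through testes alone and could only come out lower. These figures are therefore a description. Without sperm replicate 2, sperm replicate 4 or either testes sample, 0 of the 5 were called by edgeR. Ccin, the calyx protein calicin, was named after its values were seen, with 8, 0.35, 0 and 3 counts in sperm and 16.1 and 19.4 in testes. It was the one further theca gene with counts in sperm, and the highest of them stood in replicate 1, where the 10 genes had none.

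Of 6 genes of the acrosome and its attachment to the nucleus 5 had counts, 3 were tested and 1 was called lower. That gene was Spaca1, an inner acrosomal membrane protein, with 12 and 19 counts in testes and 0 in sperm (at least 3.74-fold lower, edgeR adjusted p 0.0323). Of 20 genes of the general actin system 17 had counts and 11 were tested. The 2 called lower were Actr10 (a dynactin subunit, at least 2.51-fold, edgeR adjusted p 0.0323) and Capza1 (the widely expressed alpha subunit of the capping protein, at least 2.05-fold, edgeR adjusted p 0.0383). Both, like Spaca1, had 0 counts in sperm, passed the count minimum through testes alone and could only come out lower. Of all genes tested 17.5% were called lower. The median of the 11 was -0.98, beside -1.15 for all genes tested. These 2 calls and that of Spaca1 were lost, leaving 0, whichever single sample was left out. Of 6 other actin-related genes, most of them subunits of chromatin complexes, 5 had counts and 2 were tested, and edgeR called 0 of them, with 0 also at an unadjusted p below 0.05. DESeq2 called 0, with no adjusted p for Actl6a, and limma on log2(FPKM + 1) called 1. For Actr5, a chromatin remodelling subunit, the log2 difference was 0.02 (SE 1.66), or -1.21 with TMM factors, and the edgeR adjusted p 0.994. For Actl6a, a subunit of several such complexes, it was -2.86 (SE 1.58), with an edgeR adjusted p of 0.171.

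The profile of the summed group over the 6 samples was compared with that of 2503 other genes with 50 or more counts, on log2(CPM + 1) centred on each gene's mean. The 5 closest were Zswim1, Dact1, Lhx2, Sec62 and Plcb2, with root mean square differences of 0.12, 0.21, 0.25, 0.30 and 0.33 on the log2 scale. Each of the 5 also had 0 counts in sperm replicates 1 and 3. Zswim1, for example, had 19 and 14 counts in sperm replicates 2 and 4 and 198 and 144 in testes.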

How the data were processed

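RNA of 4 sperm and 2 testes samples was sequenced, and samples were grouped by their titles. Before mapping, the authors removed adaptors, empty reads and reads of low quality. The methods of the study name SOAPaligner/SOAP2 for alignment, while the processing notes of the submitters name HISAT and the build mm10. The counting program is not given in the sources used here. The deposited tables hold, per transcript, an expected count (estimated fragments that need not be whole and are not scaled) and FPKM, scaled by the authors to transcript length and mapped fragments. Transcripts not listed for a sample were set to 0.

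Expected counts of RefSeq mRNA rows were summed per gene. They were scaled by their sample totals to give CPM, and rounded without scaling for the tests on counts. The main test was edgeR's quasi-likelihood test on 4 sperm and 2 testes samples, with these totals as library sizes, a minimum of 10 counts over the 6 samples and Benjamini-Hochberg adjustment over all genes tested. Standard errors were derived from the F statistic. FPKM entered as log2 values in limma, and as deposited in an alternative for the ratio of the summed level. Versions were R 4.3.3, edgeR 4.0.16, DESeq2 1.42.0, limma 3.58.1, Python 3.11.15, scipy 1.17.1 and matplotlib 3.10.9. The script was tested on simulated counts. Replicates of a group differed by a chi-square of 4.93 to 12.5 times its degrees of freedom. Genes with 20 or more counts in the pair were used. Replicates were therefore kept apart in the tests. The pooled ratios, their intervals, the lower bounds on a fold change and the counts at the testes level sum replicates. They leave out this spread. Labels give no batch.

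All 10 genes are named. Further genes are those called within lists (at most 4 by testes level), or the 2 highest in testes where none was called. The study left out sperm replicate 1, and it is kept here. The genes and lists were chosen with earlier results of these data known. The alternatives were other library sizes, tests, filters and pseudocounts, unrounded counts, a replicate block and leaving out single samples.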

Additional observations from a re-analysis of the deposited data

Results flagged for a closer look

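In the group of 4 sperm samples, 3 genes had 1 sample far from the others by Dixon's criterion at the 95% level, in each case sperm replicate 2, the deepest. Actl7b stood at 10.0 CPM there and at 0 in the others, Actl9 at 20.0 CPM, and Actrt2 at 10.0 CPM. These values are 1, 2 and 1 counts, and a single sample above 0 among 4 always meets the criterion. With continuous values chance flags about 1 in 20 groups, a rate that does not hold for counts as low as these.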

How the results depend on the processing

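The number of the 10 genes called lower, 1, was 3 with TMM factors, with DESeq2's size factors and with the library size of all transcripts, where calls lower over all genes rose to 1739, 1810 and 1531. It was 4 with limma on log2(FPKM + 1), with 1693 over all, and on log2(FPKM + 0.1), 0 without a filter on low counts, and 0 to 1 when 1 sample was left out. Without both sperm replicates that held none of them, a setting chosen after the data were seen, it was 2 (Actl7b and Cylc2, with Actl11 called higher). Cylc2 was called in 11 of 17 alternatives and had a negative log2 fold change in all 17. Its adjusted p was 0.245 without the filter, and over the alternatives it ran from 2.32e-04 to 0.443. Over all genes, calls lower (1214) became 256 with DESeq2's Wald test, 2132 with limma on log2(FPKM + 0.1), 7 without a filter, 205 with edgeR's filterByExpr, 698 without sperm replicates 1 and 3, and 16 to 396 when 1 sample was left out. Calls higher (266) became 60 with TMM factors, 166 with DESeq2's size factors, 140 with DESeq2's Wald test, 27 without a filter, 606 without sperm replicates 1 and 3, and 36 to 338 when 1 sample was left out. For the fits that left out a testes sample, the lone one is assumed to vary like the others. TMM factors, DESeq2's size factors and the library size of all transcripts shifted the median log2 fold change of all genes by -0.82, -0.50 and -0.24. The cause of these changes was not tested.

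With the replicate number as a block, 0 of the 10 genes were called (edgeR adjusted p 0.443 for Cylc2), and 103 genes were lower and 163 higher over all. Deviations of same-numbered samples correlated by -0.0220 and -0.0405 across 6949 genes, so the numbers do not show a pairing, while sperm replicates 3 and 4 have no partner.

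Among the 10 genes and the genes named from the 4 lists beside them, signs turned for Actl11, Actr5, Ccin, Actg1 and Actb. The main test called none of these, and Actl11 was called higher only without sperm replicates 1 and 3. Actl11 was at -0.19 and Actb at -0.62 with limma on log2(FPKM + 0.1). Actr5, Ccin and Actg1 were, in this order, at -1.21, -1.16 and -0.99 with TMM factors, -0.78, -0.73 and -0.56 with DESeq2's size factors, -0.26, -0.098 and -0.016 with the library size of all transcripts, -0.79, -0.74 and -0.56 with DESeq2's Wald test, -0.59, -0.69 and -0.15 with limma at pseudocount 1, -1.41, -1.83 and -0.21 at pseudocount 0.1, -0.47, -1.29 and -0.61 without sperm replicates 1 and 3, and -2.40, -0.49 and -0.27 with the replicate block. When 1 sample was left out they ran from -0.92 to 0.45, from -1.59 to 0.57 and from -0.043 to 0.55. The ratio of the summed level of sperm to testes, 0.215, was 0.188 with the library size of all transcripts, 0.103 with FPKM, 0.118 to 0.287 when 1 sample was left out, 0.431 without sperm replicates 1 and 3, and 0.0653 without Actl11. At this depth, 5 of the 9 genes present (Actl7a, Actl11, Actrt2, Actrt3 and Cylc1) rest on 14 counts or fewer in testes. DESeq2 gave no adjusted p for some named genes, and these are not counted as lost calls.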

Other observations

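The 2 cytoplasmic actins had counts in sperm samples that held none of the 10 genes. Actg1 had 8, 4, 6 and 6 counts in the sperm samples, in replicate order, and 37 and 32 in testes, a mean level of 130 ± 69.1 CPM (SD, n = 4) in sperm and 108 ± 9.09 CPM (SD, n = 2) in testes. Actb had 0, 23.1, 2 and 11 counts in sperm and 17 and 22 in testes. Neither was called by edgeR (adjusted p 0.927 and 0.660). Both genes were singled out after their values were seen.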
